A study of Drosophila melanogaster with 10 samples.

Results

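The Su(Hw) mutation was read as a main effect in whole third-instar larvae of Drosophila melanogaster, with 4 libraries that carry it set against 4 that do not. The groups were the triple mutant (CTCFdeltaCP, SuHwdelta114 and PitadeltaCP1), the CTCF Su(Hw) mutant (CTCFdeltaCP and SuHwdelta114), the CTCF Pita mutant (CTCFdeltaCP and PitadeltaCP1) and the CTCF mutant (CTCFdeltaCP alone), with 2 libraries each. All 8 libraries carry CTCFdeltaCP, all come from strain y1w1118, and they are 8 of the 10 libraries of the series; the other 2 are wild type and are given only as a level. The series describes these alleles as changes in the parts of CTCF, Pita and Su(Hw) that contact CP190, so they are domain mutations. Su(Hw) mutants with intact CTCF were not analysed here. How each mutant protein is supplied, and whether a library is 1 culture or several, was not stated in the labels. Larvae were kept at 25 °C and RNA came from 100 mg of pooled animals, so fewer cells of a type and less RNA per cell cannot be told apart. The p-values therefore rest on variation among these libraries, which may be technical.

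Su(Hw), CTCF and Pita are zinc-finger proteins that bind DNA at insulators and promoters and bring in the cofactor CP190. Insulators can block an enhancer from acting on a promoter and can mark the edges of chromatin domains. Su(Hw) is best known from the gypsy retrotransposon, where its binding sites separate enhancers from a gene, and from the repression of neuronal genes in other tissues.

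The libraries held 18856997 to 24391317 reads, of which 5670793 to 8220126 were assigned to genes. Mitochondrially encoded transcripts took 11.7% and 18.1% of assigned reads in the triple mutant and 8.67% and 8.80% in the CTCF Su(Hw) mutant, against 18.7% and 12.9% in CTCF Pita mutants and 34.6% and 24.2% in the CTCF mutant. The part of this share in the results below was not tested. The pair of CTCF Su(Hw) libraries differed by little more than counting error (chi-square per degree of freedom 1.785), against 41.41 in the triple mutant, 27.69 in CTCF Pita mutants and 30.6 in the CTCF mutant. If they are 1 RNA sample sequenced again, n is 3 and not 4 on the mutant side; with these libraries summed, 57 genes met the definition of a consistent change given below, against 168. Markers of larval fat body, salivary gland, gut, muscle, cuticle, neurons and hemocytes were detected in every library, while the adult photoreceptor gene Rh3 and the eggshell gene Vm26Aa had 0 reads in all 8. Other markers of adult head (ninaE, Arr2) reached 1.09 and 0.594 CPM, and bcd of the early embryo 1.49 CPM. Among adult female markers Yp3 reached 139 CPM, and testis markers summed to 13.1 to 86.5 CPM.

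Transcripts of su(Hw) itself (FBgn0003567; 3R, 14304455 to 14308589 in dm6) served to check the labels. Its level was 583 and 387 CPM in the triple mutant and 486 and 501 CPM in the CTCF Su(Hw) mutant, against 23.7 and 24.6 CPM in CTCF Pita mutants and 22.3 and 21.6 CPM in the CTCF mutant. CPM are reads scaled for the size and composition of each library. The groups did not overlap, and wild type was at 26.02 and 26.9 CPM. Transcripts of su(Hw) thus rose in the libraries labelled SuHwdelta114 (log2 fold change 4.41, SE 0.23, edgeR adjusted p = 0.000112), by 4.33 on the log2 scale with Pita mutant and 4.49 with Pita intact. Counts per gene do not tell the mutant transcript from an intact one.

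Transcripts of the partner proteins did not move with the Su(Hw) mutation beyond their spread. The pita gene stood at 222 and 167 CPM in the triple mutant and 20.8 and 17.3 CPM in the CTCF Su(Hw) mutant, against 171 and 154 CPM in CTCF Pita mutants and 29.7 and 18.2 CPM in the CTCF mutant. It was high in the libraries labelled PitadeltaCP1, with no difference past the test by Su(Hw) status (log2 fold change -0.02, SE 0.23, edgeR adjusted p = 0.992; the sign turned to 0.36 when library totals replaced TMM scaling). CTCF gave a log2 fold change of 0.35 (SE 0.21, edgeR adjusted p = 0.634). For mod(mdg4), which codes for another insulator protein, it was -0.21 (SE 0.15, edgeR adjusted p = 0.698; 0.16 with library totals). Cp190 was at 47.7 and 15.1 CPM in the triple mutant and 49.8 and 51.0 CPM in the CTCF Su(Hw) mutant, against 50.3 and 56.2 CPM in CTCF Pita mutants and 26.7 and 24.8 CPM in the CTCF mutant. Its log2 fold change of 0.09 (SE 0.43, edgeR adjusted p = 0.978) joined opposite signs, -0.72 with Pita mutant and 0.97 with Pita intact, a difference that passed the interaction test (edgeR adjusted p = 0.026). Without CTCF 1, CTCF 2 or CTCF Su(Hw) 2 the log2 fold change of Cp190 was -0.11, -0.14 and -0.01.

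With Pita status as covariate, 174 of 10585 genes tested passed at an adjusted p of 0.05 (1.64%), 106 higher (1.00%) and 68 lower (0.642%) with the Su(Hw) mutation. All 174 had a fold change of the same sign in both Pita backgrounds. The fit itself favours this, because it counts a difference between the backgrounds as spread, so genes with opposite signs seldom pass. In 168 of the 174 (1.59% of genes tested) the 2 libraries with the Su(Hw) mutation also lay on the same side of the 2 without it within each background. By such separation alone, without the test, 6.10% of all genes were higher and 4.91% lower. The 101 higher (0.954%) and 67 lower genes (0.633%) that met both are called consistent below. The consistent genes were changed by a median of 1.92 on the log2 scale, with 54 genes at least 4-fold higher and 26 at least 4-fold lower. The change was larger with Pita mutant in 58 of them and with Pita intact in 110, and 32 of the 168 passed the interaction test. That last number, too, is held down by a fit that counts such a difference as spread. Leaving out triple 2 gave 127 consistent genes, of which 109 were among the 168. Without CTCF Pita 2 there were 99 (90 among the 168) and without CTCF Pita 1 98 (91). Without CTCF 1 there were 86 (81), without triple 1 80 (76) and without CTCF 2 66 (63). Without CTCF Su(Hw) 1 or 2 there were 53 and 52, all among the 168. The number also depended on the model, with 746 genes when all 10 libraries were fitted, 704 with a term for each of the 4 genotypes, 402 by DESeq2 and 34 with Pita status left out of the fit. With library totals in place of TMM scaling it was 78, of which 46 were among the 168. There were 43 genes, 26 higher and 17 lower, that stayed consistent whichever library was left out.

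The consistent genes stood against a background in which the difference by Su(Hw) status itself differed by Pita status. With Pita mutant 1597 genes passed the test (15.1%), and with Pita intact 4203 (39.7%). In all, 226 passed in both with the same sign, while 641 passed in both with opposite signs. The difference between the backgrounds passed the interaction test in 4627 genes (43.7%). On the first principal component, which held 48% of the variance among libraries, the CTCF libraries stood at 77.8 and 65.8. All other libraries lay between -38.6 and 4.74. The values with Pita intact use these CTCF libraries, and their part in the counts was not tested. Over all genes tested, 31.7% had the same sign in both backgrounds, and the fold changes of the backgrounds, which share no library, had a Pearson r of -0.185 and a Spearman rho of -0.423 across genes, which are not independent replicates. The plot of one background against the other shows this spread and the consistent genes in its corners.

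**Figure D1:**
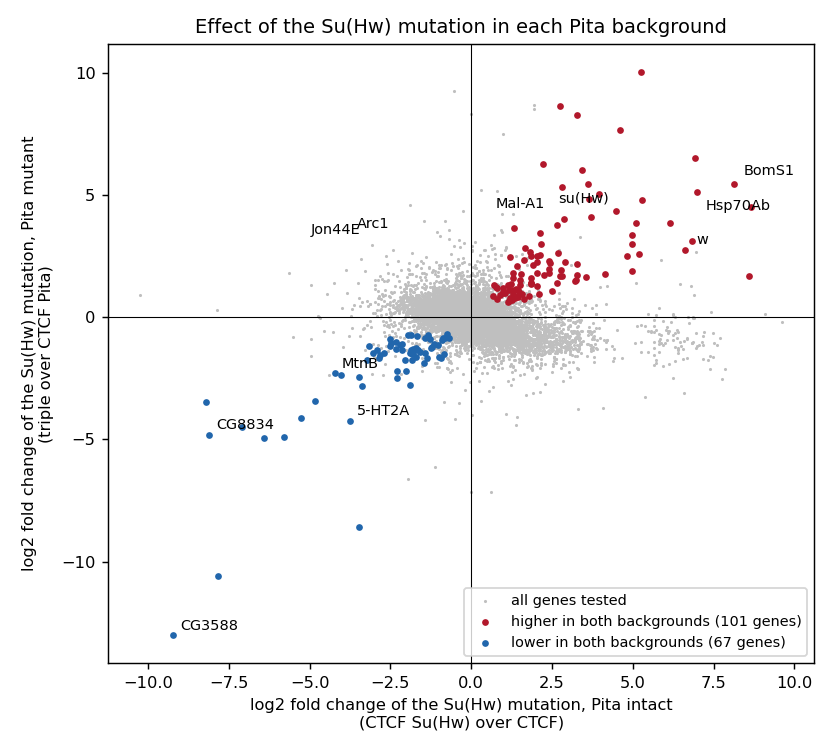
Log2 fold change of the Su(Hw) mutation with Pita intact (x axis) and with Pita mutant (y axis) for 10585 genes tested. Red and blue points are the 101 higher and 67 lower genes that moved the same way in both backgrounds; grey points fall mostly in the quadrants of opposite sign, as for Arc1 and Jon44E.

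Against wild type as a level, 84 of the 101 higher and 44 of the 67 lower consistent genes had wild type nearer to the libraries without the Su(Hw) mutation than to those with it. Nearness was taken between mean levels on the log2 scale with 0.5 CPM added. It was not counted over all genes tested, so these numbers have no background share to be read against. Of 10283 protein-coding genes tested, 97 were consistently higher and 65 lower, close to the shares over all genes (0.954% and 0.633%). Of 162 noncoding genes tested, 4 were higher and 1 lower, and the remainder of the consistent genes was of neither type. By chromosome arm, 31 higher (1.46%) and 20 lower genes (0.94%) of 2127 tested lay on 2R, and 8 (0.48%) and 9 (0.54%) of 1668 on X. On 2L there were 13 and 8 of 1941, on 3L 22 and 12 of 2064, and on 3R 27 and 18 of 2604. Chromosome 4 had 0 and 0 of 77, where the shares over all genes (0.954% and 0.633%) would give few. The genes on 2R include the runs of related Bomanin and maltase genes described below. None of the 14 mitochondrially encoded genes tested passed, with a median log2 fold change of -1.13.

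Many genes for secreted immune peptides rose. Of 40 tested genes for antimicrobial peptides and peptidoglycan recognition proteins (PGRPs), 14 were consistently higher and 1 lower, and the other 25 did not pass. Over all genes 0.954% were higher in this way. The median log2 fold change of the list was 2.40, against -0.02 over all genes tested, and stayed at 2.40 with the 3 genes at 0 reads on a side set to their lower bound. Many of its genes are targets of the Toll pathway, which answers fungi and Gram-positive bacteria by making peptides in the fat body. The median was 2.73 with Pita mutant and 0.98 with Pita intact.

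The Bomanins, short secreted peptides induced through Toll, form a cluster on 2R (18382704 to 18390242) in which all 7 genes tested were consistently higher. BomS1 (FBgn0034329; 2R, 18383949 to 18384378) was at 56.9 and 75.04 CPM in the triple mutant and 4.13 and 5.12 CPM in the CTCF Su(Hw) mutant, against 1.64 and 1.37 CPM in CTCF Pita mutants and 0 in both CTCF libraries. Every library with the Su(Hw) mutation lay above every library without it, and wild type stood at 1.01 and 4.96 CPM. BomS1 rose by 5.54 on the log2 scale (SE 0.31, edgeR adjusted p = 0.000121). BomS2 stood at 33.4 and 38.9 CPM in the triple mutant and 1.88 and 2.22 CPM in the CTCF Su(Hw) mutant, against 0.629 and 1.08 CPM in CTCF Pita mutants and 0 and 0.527 CPM in the CTCF mutant (log2 fold change 5.04, SE 0.48, edgeR adjusted p = 0.00268). BomS3 rose by 4.74 (SE 0.42, edgeR adjusted p = 0.00223; 5.495 without CTCF Pita 2) and BomT2 by 5.04 (SE 0.55, edgeR adjusted p = 0.00437; 5.66 without CTCF Pita 2). In each of these genes the triple mutant was the highest genotype. BomBc2 rose by 5.75 (SE 0.82, edgeR adjusted p = 0.011), a call that ended without triple 1 or CTCF Pita 2 (edgeR adjusted p = 0.0564 and 0.0529); its log2 fold change was 6.34 without CTCF Pita 2 and 4.93 without CTCF Pita 1. BomBc1 and BomS5 had 69 and 53 reads over the libraries with the mutation and 0 in those without it, which makes them at least 16.6-fold and 12.8-fold higher with 3 reads over the group in place of 0. With Pita intact alone, BomBc1, BomBc2, BomT2 and BomS5 did not pass (edgeR adjusted p = 0.4018, 0.183, 0.1665 and 0.1483). There BomBc1 was at 0.188 and 0.0966 CPM against 0, less than the 0.297 and 0.263 CPM of 1 read in the CTCF libraries. Wild type BomBc2, at 2.03 and 3.84 CPM, lay above the CTCF Su(Hw) libraries (0.939 and 0.483 CPM). The call of BomS5 ended without any of the 8 libraries (edgeR adjusted p = 0.0642 to 0.171), and that of BomBc1 without any but CTCF 1 (0.0672 to 0.113; log2 fold change 7.17, against 7.82, without triple 2).

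Outside the cluster, Dso2, which codes for another short Toll-induced peptide, had 16.1 and 18.4 CPM in the triple mutant and 0.376 and 0.870 CPM in the CTCF Su(Hw) mutant, against 0 reads in the 4 libraries without the mutation. With 251 reads against a floor of 3 over the group it was at least 60.4-fold higher (edgeR adjusted p = 0.0061). The triple mutant had by far the higher level, and the edgeR adjusted p was 0.000101 with Pita mutant and 0.044 with Pita intact. Wild type Dso2 was at 0 and 2.24 CPM, and the larger of these lay above both CTCF Su(Hw) libraries. Def, the gene for the antibacterial peptide defensin, was at 22.9 and 208 CPM in the triple mutant and 7.89 and 7.54 CPM in the CTCF Su(Hw) mutant, against 2.64 and 0.978 CPM in CTCF Pita mutants and 0.594 and 0.790 CPM in the CTCF mutant. The groups did not overlap, but triple 2 stood far above the rest and wild type was at 0.169 and 17.4 CPM. Def rose by 5.48 (SE 0.93, edgeR adjusted p = 0.0271), by 3.61 without triple 2, and its call ended when any library outside the triple mutant was left out (edgeR adjusted p = 0.0599 to 0.116; log2 fold change 4.83 without CTCF Pita 2). Drs, the gene for the antifungal peptide drosomycin, was at 180 and 262 CPM in the triple mutant and 4.23 and 3.29 CPM in the CTCF Su(Hw) mutant, against 30.3 and 10.8 CPM in CTCF Pita mutants and 1.49 and 0.263 CPM in the CTCF mutant. Within each Pita background the groups were apart, although the CTCF Pita libraries lay above those of the CTCF Su(Hw) mutant. Its rise of 3.15 (SE 0.49, edgeR adjusted p = 0.0196) lost its call without triple 1, CTCF Su(Hw) 1 or CTCF 2 (edgeR adjusted p = 0.0564, 0.059 and 0.081). Wild type Drs was at 0.845 and 14.9 CPM. With Pita intact alone neither Def nor Drs passed (edgeR adjusted p = 0.0969 and 0.0839).

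The remaining higher peptide genes were AttC, AttB and CecC, for 2 attacins and a cecropin that act on bacterial membranes, and Mtkl, a relative of the antifungal peptide gene Mtk, with log2 fold changes of 3.27, 3.07, 3.09 and 2.28. AttC stood at 157 and 517 CPM in the triple mutant and 42.5 and 40.6 CPM in the CTCF Su(Hw) mutant, against 38.2 and 11.7 CPM in CTCF Pita mutants and 5.35 and 7.63 CPM in the CTCF mutant, and at 50.2 and 122 CPM in wild type. Each of these calls rested on single libraries, with edgeR adjusted p between 0.0525 and 0.158 where they were lost. Leaving out CTCF Su(Hw) 2 or CTCF 2 ended all 4, CTCF Su(Hw) 1 or CTCF 1 those of AttC, AttB and CecC, CTCF Pita 2 those of AttB, CecC and Mtkl, CTCF Pita 1 those of AttC and Mtkl, and triple 2 those of AttB and CecC. The log2 fold change was 2.67 for AttC without triple 2, and 3.68 for both AttB and CecC without triple 1; without CTCF Pita 1 it was 3.70 for AttB and 3.84 for CecC. The amidase gene PGRP-SC1b, whose product breaks down peptidoglycan, went the other way, with 8.30 and 7.87 CPM in the triple mutant and 5.35 and 6.38 CPM in the CTCF Su(Hw) mutant, against 34.4 and 54.9 CPM in CTCF Pita mutants and 69.8 and 62.1 CPM in the CTCF mutant. It fell by 2.98 (SE 0.27, edgeR adjusted p = 0.00242) and stayed called under every alternative run, but wild type was at 4.73 and 0.961 CPM, near the libraries with the Su(Hw) mutation. Its near-identical copy PGRP-SC1a makes these counts uncertain, since reads that fit both were not counted.

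In place of 14, the number of consistently higher peptide genes was 11 without triple 1, 10 without triple 2, 9 without CTCF Pita 1 or CTCF 1, 7 without CTCF Pita 2, CTCF Su(Hw) 1 or CTCF Su(Hw) 2, and 6 without CTCF 2. The 4 hemocyte markers Hml, NimC1, PPO1 and PPO2 summed to 340 to 639 CPM with the Su(Hw) mutation and 214 to 486 CPM without it, and none of them passed. None of 21 genes of hemocytes and crystal cells passed either (median 0.28). Of genes expressed in lamellocytes, the blood cells that appear on wounding or parasitism, PPO3 was at 6.77 and 4.03 CPM in the triple mutant and 2.16 and 1.64 CPM in the CTCF Su(Hw) mutant, against 1.13 and 0.685 CPM in CTCF Pita mutants and 0.594 and 0 CPM in the CTCF mutant. Its call (log2 fold change 2.61, SE 0.50, edgeR adjusted p = 0.0403) ended without any of the 8 libraries (0.0523 to 0.197). The part of blood cells in the peptide genes was not tested.

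**Figure D2:**
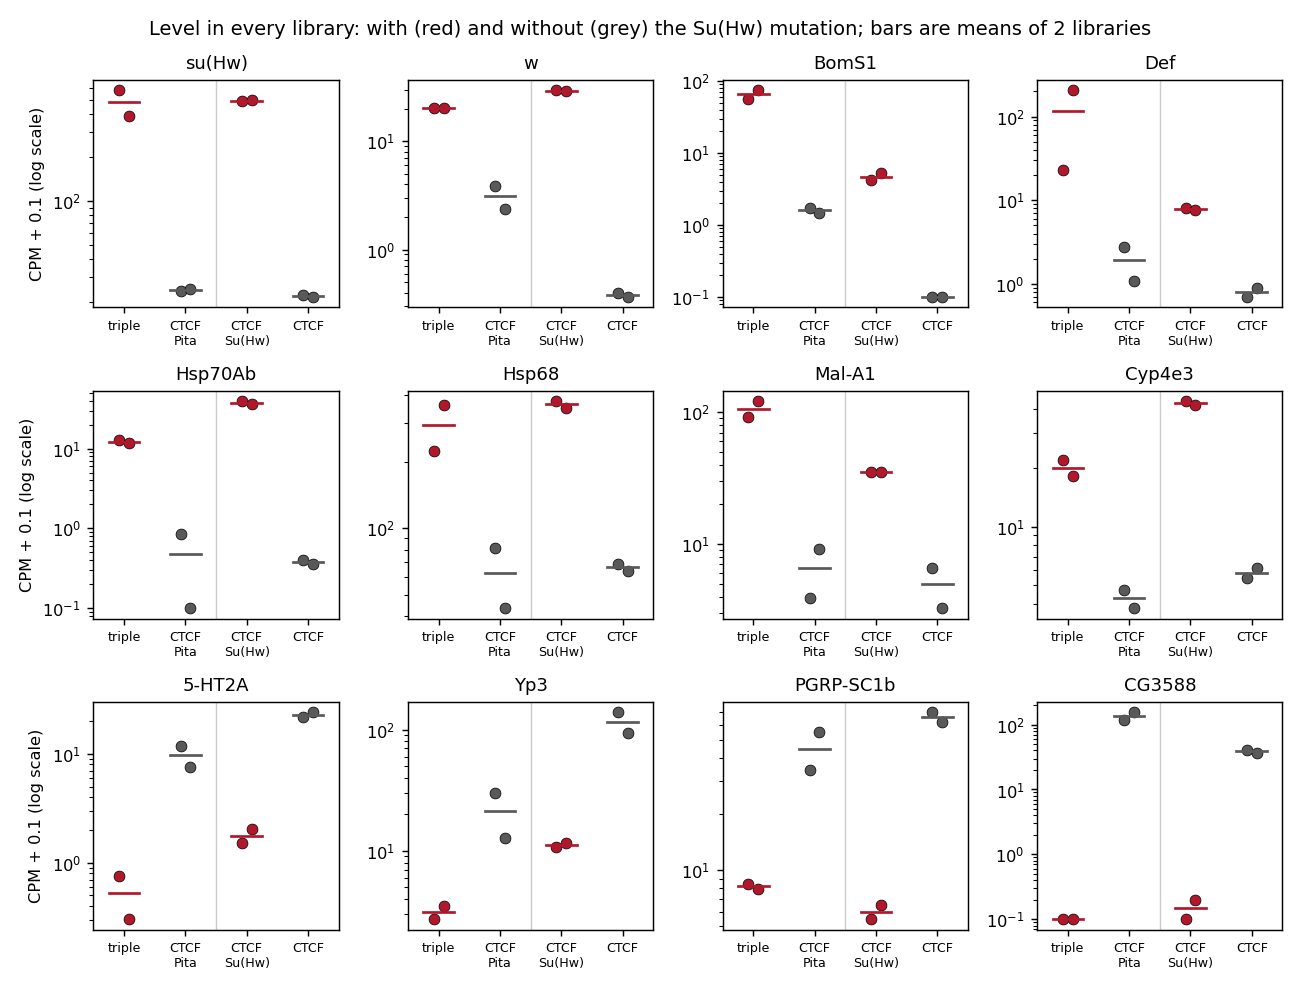
CPM plus 0.1 on a log scale for 12 genes in each library of the triple, CTCF Pita, CTCF Su(Hw) and CTCF mutants; points are libraries and bars the mean of 2. The red points (Su(Hw) mutation) lie above the grey points of the same Pita background for the first 8 genes and under them for the last 4, for instance 583 and 387 CPM against 23.7 and 24.6 CPM for su(Hw).

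Many heat shock genes rose too. Of 17 tested genes for chaperones and their regulators, 9 were consistently higher (0.954% of all genes), none was lower (0.633%) and 8 did not pass, with a median log2 fold change of 2.10 (1.81 with Pita mutant and 2.39 with Pita intact). Summed over the list the level was 7038 and 8303 CPM in the triple mutant and 7224 and 7157 CPM in the CTCF Su(Hw) mutant, against 4528 and 3934 CPM in CTCF Pita mutants and 4234 and 4768 CPM in the CTCF mutant. Hsp68, an inducible chaperone of the Hsp70 family with a sequence of its own, was at 224 and 361 CPM in the triple mutant and 376 and 351 CPM in the CTCF Su(Hw) mutant, against 81.3 and 43.3 CPM in CTCF Pita mutants and 68.9 and 64.0 CPM in the CTCF mutant. Wild type stood at 70.8 and 71.4 CPM, within the range without the Su(Hw) mutation. Hsp68 rose by 2.34 (SE 0.27, edgeR adjusted p = 0.00515) and stayed called under every alternative run. The cochaperone gene DnaJ-1, which codes for an Hsp40, was at 273 and 322 CPM in the triple mutant and 406 and 396 CPM in the CTCF Su(Hw) mutant, against 111 and 58.5 CPM in CTCF Pita mutants and 75.8 and 77.4 CPM in the CTCF mutant (log2 fold change 2.10, SE 0.26, edgeR adjusted p = 0.00723).

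The Hsp70 genes, which code for the main inducible chaperone of the fly, were close to 0 without the Su(Hw) mutation. Hsp70Ab (FBgn0013276; 3R, 11958535 to 11960909) was at 12.8 and 11.5 CPM in the triple mutant and 39.2 and 35.9 CPM in the CTCF Su(Hw) mutant, against 0.755 and 0 CPM in CTCF Pita mutants and 0.297 and 0.263 CPM in the CTCF mutant. It rose by 5.85 (SE 0.55, edgeR adjusted p = 0.00258; 7.44 without CTCF Pita 1). In the cluster at 3R, 12502510 to 12511461, all 3 genes tested were consistently higher: Hsp70Bb by 4.82 (SE 0.59, edgeR adjusted p = 0.00642), Hsp70Bc by 4.05 (SE 0.51, edgeR adjusted p = 0.00723) and Hsp70Bbb, which had 126 reads with the mutation and 2 without it, a ratio of 45.5 with a 95% interval of 12.3 to 379.5. The call of Hsp70Bbb ended without CTCF Su(Hw) 1, CTCF Su(Hw) 2 or CTCF 2 (edgeR adjusted p = 0.0778, 0.0619 and 0.0592), and with library totals those of Hsp70Bb and Hsp70Bc ended (0.0522 and 0.0508). Without CTCF Pita 1 the log2 fold changes of these 3 genes were 5.65, 4.91 and 5.26. The Hsp70 copies are nearly identical, and ambiguous reads were left uncounted, so the level of each copy is uncertain. Hsp83, the fly Hsp90, was at 1881 and 2089 CPM in the triple mutant and 2230 and 2185 CPM in the CTCF Su(Hw) mutant, against 925 and 667 CPM in CTCF Pita mutants and 691 and 867 CPM in the CTCF mutant. Its libraries did not overlap, but its call (log2 fold change 1.41, SE 0.26, edgeR adjusted p = 0.0375) ended without any of the 8 libraries (0.0505 to 0.13), and that of the small chaperone gene Hsp26 without any but triple 1 and CTCF Pita 1 (0.107 to 0.166). Leaving out CTCF Su(Hw) 1, CTCF Su(Hw) 2 or CTCF 2 left 5 consistently higher heat shock genes in place of 9. The sources used here give no heat treatment beyond 25 °C, and the handling of larvae before extraction was not tested.

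**Figure D3:**
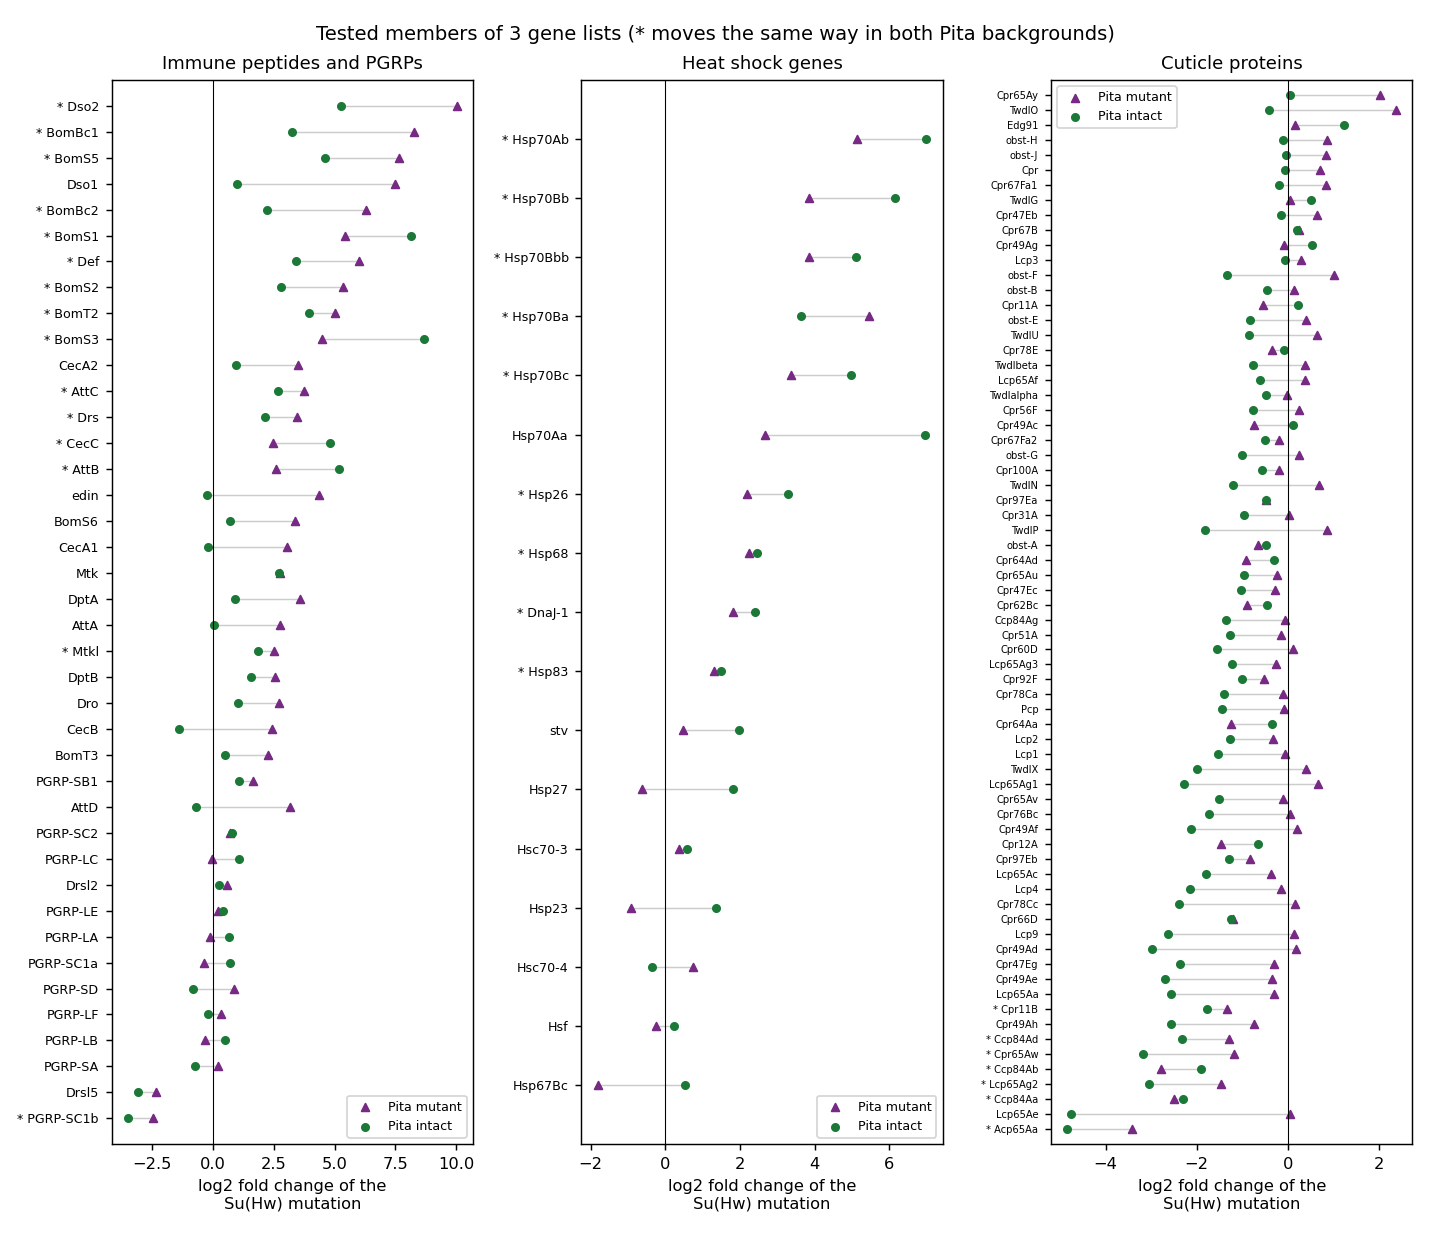
Log2 fold change of the Su(Hw) mutation with Pita mutant (triangles) and Pita intact (circles) for every tested gene of 3 lists, 40 immune genes, 17 heat shock genes and 70 cuticle protein genes, ordered by the 4 against 4 value. Asterisks mark the 15, 9 and 7 genes that moved the same way in both backgrounds; among cuticle genes the triangles cluster near 0 while the circles lie mostly under it.

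Some maltase genes rose and a pair of gut proteases fell. Of 46 digestive enzyme genes tested, 5 were consistently higher (0.954% of all genes) and 2 lower (0.633%), and the list as a whole had a median log2 fold change of -0.03, with 1.19 with Pita mutant and -0.97 with Pita intact. Of the 5 higher genes, 4 were maltase genes of 1 stretch of 2R (8449664 to 8473961), where the other 6 of 10 genes tested were not consistent. Mal-A1 (FBgn0002570; 2R, 8449664 to 8451904), for an alpha-glucosidase, was at 91.9 and 121 CPM in the triple mutant and 34.9 and 35.3 CPM in the CTCF Su(Hw) mutant, against 3.77 and 9.10 CPM in CTCF Pita mutants and 6.537 and 3.16 CPM in the CTCF mutant. All 4 libraries with the Su(Hw) mutation lay above all others, wild type included at 9.12 and 5.76 CPM. It rose by 3.52 (SE 0.39, edgeR adjusted p = 0.00457) and stayed called under every alternative run. Mal-A6 rose by 2.35 (SE 0.36, edgeR adjusted p = 0.0183), a call lost without triple 1, CTCF Su(Hw) 1 or CTCF Su(Hw) 2 (0.0564, 0.0548 and 0.0567). Mal-A7 and Mal-A8, with log2 fold changes of 3.29 and 2.53, each lost their call without any library but triple 1 and CTCF Pita 2 (edgeR adjusted p = 0.0503 to 0.102; the value for Mal-A7 was 3.92 without CTCF Pita 2), and their rise was smaller with Pita mutant (1.89 and 1.65) than with Pita intact (4.96 and 3.56), a difference that passed the interaction test (edgeR adjusted p = 0.005 and 0.0058). The gut serine protease gene Jon99Fii was at 107 and 182 CPM in the triple mutant and 487 and 505 CPM in the CTCF Su(Hw) mutant, against 393 and 577 CPM in CTCF Pita mutants and 1817 and 1705 CPM in the CTCF mutant. It fell by 1.79 (SE 0.27, edgeR adjusted p = 0.0162), and its neighbour and close copy Jon99Fi by 1.91 (SE 0.34, edgeR adjusted p = 0.0375). The calls ended without triple 1, CTCF 2 or either CTCF Su(Hw) library for Jon99Fii (0.0597 to 0.0832), and for Jon99Fi without any library but triple 2 (0.0551 to 0.145). Without CTCF Su(Hw) 1 or 2, 1 digestive gene was consistently higher; without CTCF 2, triple 2 or CTCF Pita 1 there were 2, and without CTCF 1 there were 3.

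Cytochrome P450 genes, which code for enzymes of hormone synthesis and detoxification, had 5 consistently higher (0.954% of all genes) and 1 lower member (0.633%) of 73 tested, with a median of 0.21. Cyp4e3 (FBgn0015035; 2L, 9747839 to 9750071) was at 21.7 and 17.9 CPM in the triple mutant and 43.8 and 41.6 CPM in the CTCF Su(Hw) mutant, against 4.66 and 3.72 CPM in CTCF Pita mutants and 5.35 and 6.05 CPM in the CTCF mutant. It rose by 2.56 (SE 0.20, edgeR adjusted p = 0.00108), stayed called under every alternative run, and stood at 1.86 and 1.92 CPM in wild type. Cyp6g1, known for its part in resistance to the insecticide DDT, was lower, with 19.1 and 23.2 CPM in the triple mutant and 26.5 and 24.6 CPM in the CTCF Su(Hw) mutant, against 54.1 and 53.8 CPM in CTCF Pita mutants and 202 and 186 CPM in the CTCF mutant. Wild type was at 24.8 and 18.2 CPM, close to the libraries with the Su(Hw) mutation. The fall of Cyp6g1 (log2 fold change -2.15, SE 0.33, edgeR adjusted p = 0.0169) was smaller with Pita mutant (-1.36) than with Pita intact (-2.92; edgeR adjusted p of the difference 0.00074), and its call ended without triple 1, CTCF 2 or either CTCF Su(Hw) library (0.0563 to 0.081). The list had 2 consistently higher genes without triple 1, either CTCF library or either CTCF Su(Hw) library, and 3 without CTCF Pita 1.

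Among the other higher genes that kept their call whichever library was left out was neur, whose product is a ubiquitin ligase that acts on the Notch ligand Delta. It stood at 26.4 and 21.4 CPM in the triple mutant and 39.9 and 36.8 CPM in the CTCF Su(Hw) mutant, against 7.80 and 7.33 CPM in CTCF Pita mutants and 5.94 and 5.53 CPM in the CTCF mutant. The libraries did not overlap, and neur rose by 2.16 (SE 0.24, edgeR adjusted p = 0.00497). An antisense RNA gene inside neur, asRNA:CR31429, also rose, a call lost without any library but CTCF 1 (edgeR adjusted p = 0.0588 to 0.1215), and unstranded counts do not tell the pair apart. CG4757 (FBgn0027584; 3R, 11161207 to 11163498) was at 69.4 and 80.5 CPM in the triple mutant and 4.88 and 6.47 CPM in the CTCF Su(Hw) mutant, against 2.77 and 5.77 CPM in CTCF Pita mutants and 0.297 and 0.527 CPM in the CTCF mutant (log2 fold change 4.05, SE 0.31, edgeR adjusted p = 0.000952). CG42815 differed most in level with Pita intact, at 2.07 and 0.403 CPM in the triple mutant and 220 and 214 CPM in the CTCF Su(Hw) mutant, against 0.126 and 0.196 CPM in CTCF Pita mutants and 10.4 and 3.69 CPM in the CTCF mutant. Its log2 fold change of 4.67 (SE 0.56, edgeR adjusted p = 0.00608; 4.05 without CTCF 2) had the same sign in both backgrounds. With Pita mutant alone CG42815 did not pass (edgeR adjusted p = 0.058). There triple 2 and both CTCF Pita libraries were under the level of 3 reads, so the rise in that background is near the floor. CG31793 (log2 fold change 1.77, SE 0.19, edgeR adjusted p = 0.00437) stayed called under every alternative run.

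Some cuticle protein genes fell. Of 70 tested, 7 were consistently lower (0.633% of all genes), none was higher and 63 did not pass, with a median log2 fold change of -0.68. That median was -0.08 with Pita mutant and -1.12 with Pita intact. Cuticle proteins bind chitin in the larval and adult body wall, and many are made in short windows around moults. Acp65Aa, described as an adult cuticle protein, was at 0.218 and 0 CPM in the triple mutant and 0.376 and 0.483 CPM in the CTCF Su(Hw) mutant, against 1.76 and 1.56 CPM in CTCF Pita mutants and 16.6 and 8.95 CPM in the CTCF mutant. It fell by 4.51 (SE 0.50, edgeR adjusted p = 0.00457), and its level with the mutation rests on 11 reads in all.

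The 4 neighbouring genes on 3R (6692732 to 6704903), Ccp84Aa, Ccp84Ab, Ccp84Ad and a noncoding gene between them, were all consistently lower, and no other gene in that span was tested. Ccp84Ab was at 1.75 and 3.23 CPM in the triple mutant and 9.96 and 10.2 CPM in the CTCF Su(Hw) mutant, against 16.1 and 16.2 CPM in CTCF Pita mutants and 33.3 and 41.9 CPM in the CTCF mutant. Wild type stood at 40.5 in both libraries. Ccp84Ab changed by -2.27 (SE 0.25, edgeR adjusted p = 0.00457) and Ccp84Aa by -2.36 (SE 0.26, edgeR adjusted p = 0.00457). Cpr11B on X was at 6.77 and 6.25 CPM in the triple mutant and 12.6 and 15.8 CPM in the CTCF Su(Hw) mutant, against 18.2 and 14.8 CPM in CTCF Pita mutants and 49.3 and 47.6 CPM in the CTCF mutant (log2 fold change -1.57, SE 0.18, edgeR adjusted p = 0.005). The calls of Lcp65Ag2 (-2.30), Cpr65Aw (-2.24) and Ccp84Ad (-1.87) ended without single libraries: CTCF Su(Hw) 1, CTCF Su(Hw) 2 and CTCF 2 for all 3, CTCF 1 for Lcp65Ag2 and Cpr65Aw, triple 1 for Lcp65Ag2, and triple 2 and CTCF Pita 1 for Cpr65Aw (edgeR adjusted p = 0.0639 to 0.162). Leaving out CTCF Su(Hw) 1, CTCF Su(Hw) 2 or CTCF 2 left 4 consistently lower cuticle genes in place of 7. The 4 larval cuticle markers Lcp1 to Lcp4 summed to 13597 to 14008 CPM with the Su(Hw) mutation and 13975 to 38715 CPM without it, and none of them passed.

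Single lower genes of other kinds included 5-HT2A (FBgn0087012; 3R, 4612870 to 4633304), which codes for a serotonin receptor. It was at 0.655 and 0.202 CPM in the triple mutant and 1.41 and 1.93 CPM in the CTCF Su(Hw) mutant, against 11.7 and 7.53 CPM in CTCF Pita mutants and 21.7 and 24.0 CPM in the CTCF mutant. Wild type had 35.3 and 43.2 CPM, so all 4 libraries with the Su(Hw) mutation were under the other 6. 5-HT2A fell by 3.93 (SE 0.30, edgeR adjusted p = 0.000952), by 4.24 with Pita mutant and 3.76 with Pita intact, and stayed called under every alternative run. Of the 42 neuronal genes tested, whose median was 0.03, it was the consistent one, against 0.633% lower over all genes. The 20 neuropeptide genes had none.

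The metallothionein gene MtnB, for a small metal-binding protein, was at 5.35 and 2.62 CPM in the triple mutant and 1.41 and 0.870 CPM in the CTCF Su(Hw) mutant, against 16.9 and 24.6 CPM in CTCF Pita mutants and 20.5 and 22.9 CPM in the CTCF mutant. It fell by 3.18 (SE 0.43, edgeR adjusted p = 0.00965); all 5 metallothionein genes tested had a negative value, but the other 4 did not pass. Alp2, an alkaline phosphatase gene, was at 1.42 and 0.202 CPM in the triple mutant and 0.188 and 0.193 CPM in the CTCF Su(Hw) mutant, against 8.30 and 35.7 CPM in CTCF Pita mutants and 25.6 and 31.3 CPM in the CTCF mutant (log2 fold change -5.58, SE 0.72, edgeR adjusted p = 0.00745; -6.97 without triple 1). CG8834 was at 6.66 and 6.05 CPM in the triple mutant and 1.03 and 1.16 CPM in the CTCF Su(Hw) mutant, against 169 and 192 CPM in CTCF Pita mutants and 411 and 211 CPM in the CTCF mutant. It fell by 6.32 (SE 0.73, edgeR adjusted p = 0.0051), and wild type, at 13.2 and 2.40 CPM, was near the libraries with the Su(Hw) mutation. MtnB, Alp2 and CG8834 stayed called under every alternative run.

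The yolk protein gene Yp3, which the adult female fat body expresses at high level, was at 2.62 and 3.43 CPM in the triple mutant and 10.6 and 11.6 CPM in the CTCF Su(Hw) mutant, against 29.9 and 12.6 CPM in CTCF Pita mutants and 139 and 92.9 CPM in the CTCF mutant. It fell by 3.14 (SE 0.32, edgeR adjusted p = 0.00403). The other yolk protein genes Yp1 and Yp2 and the eggshell genes Cp36 and Cp38 were at or under 2.08 CPM in every library, and Vm26Aa at 0. The transcription factor gene ss, which acts in antennae and legs, was at 0.983 and 1.01 CPM in the triple mutant and 1.69 and 2.22 CPM in the CTCF Su(Hw) mutant, against 3.02 and 3.72 CPM in CTCF Pita mutants and 17.2 and 19.5 CPM in the CTCF mutant. It fell by 2.65 (SE 0.33, edgeR adjusted p = 0.00723; 0.0508 without CTCF Su(Hw) 2), and wild type stood at 1.86 and 1.60 CPM.

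Odc1, for the first enzyme of polyamine synthesis, was at 5.46 and 7.46 CPM in the triple mutant and 28.2 and 26.2 CPM in the CTCF Su(Hw) mutant, against 21.8 and 18.1 CPM in CTCF Pita mutants and 71.0 and 68.2 CPM in the CTCF mutant. It fell by 1.49 (SE 0.17, edgeR adjusted p = 0.0051). The acyl-CoA binding protein gene Acbp5 was at 40.0 and 39.5 CPM in the triple mutant and 75.9 and 85.9 CPM in the CTCF Su(Hw) mutant, against 99.2 and 118 CPM in CTCF Pita mutants and 267 and 297 CPM in the CTCF mutant, and fell by 1.63 (SE 0.18, edgeR adjusted p = 0.0048). Both kept their call whichever library was left out. GILT2, a relative of the lysosomal thiol reductase of mammals, fell by 2.17 (SE 0.37, edgeR adjusted p = 0.0278), but its call ended without 6 of the 8 libraries, all but triple 2 and CTCF Pita 2 (0.0719 to 0.111).

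The gene w and a short stretch of X near it also separated the libraries. The w product carries eye pigment precursors, the y1w1118 strain is mutant for it, and w is widely used to mark transgenes. Its level (FBgn0003996; X, 2790599 to 2796466) was 19.98 and 19.97 CPM in the triple mutant and 29.6 and 28.9 CPM in the CTCF Su(Hw) mutant, against 3.77 and 2.25 CPM in CTCF Pita mutants and 0.297 and 0.263 CPM in the CTCF mutant. The libraries did not overlap, and w rose by 3.74 (SE 0.55, edgeR adjusted p = 0.0137), by 2.75 with Pita mutant and 6.63 with Pita intact. With library totals w did not pass (edgeR adjusted p = 0.104). Wild type was at 0.676 and 1.28 CPM. The pigmentation gene y, which is also mutant in the strain, was at 0.546 and 0 CPM in the triple mutant and 0.282 and 0.193 CPM in the CTCF Su(Hw) mutant, against 2.39 and 1.37 CPM in CTCF Pita mutants and 2.67 and 0.790 CPM in the CTCF mutant, and did not pass (log2 fold change -2.58, SE 0.68, edgeR adjusted p = 0.125). It passed in 3 of the 19 alternatives that tested it, which were DESeq2, a term for each genotype and all 10 libraries (edgeR adjusted p = 0.0144 in the last).

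Of the 30 other genes tested within 200 kb of w, none was consistently higher and 3 were lower (0.633% of all genes), and they lay on the same side, 94.6, 129.2 and 157.4 kb away. The nearest, CG14419 (FBgn0029639; X, 2885186 to 2885914), had 0 reads in all 4 libraries with the Su(Hw) mutation, against 22.6 and 28.6 CPM in CTCF Pita mutants, 4.75 and 2.90 CPM in the CTCF mutant and 24.8 and 37.1 CPM in wild type. With 499 reads against a floor of 3 it was at least 230.5-fold lower with the mutation (edgeR adjusted p = 0.00286). CG3588 (FBgn0025643; X, 2919770 to 2924426) had 1 read with the mutation and 2791 without it, a scaled ratio of 3868 with a 95% interval of 693.7 to 152800 (edgeR adjusted p = 4.75e-05). CG3588 stood at 118 and 154 CPM in CTCF Pita mutants, 40.4 and 36.3 CPM in the CTCF mutant and 198 and 240 CPM in wild type. CG3603 was at 16.3 and 16.5 CPM in the triple mutant and 30.1 and 30.9 CPM in the CTCF Su(Hw) mutant, against 35.99 and 36.8 CPM in CTCF Pita mutants and 153 and 129 CPM in the CTCF mutant (log2 fold change -1.69, SE 0.24, edgeR adjusted p = 0.0122; 0.066 and 0.0619 without CTCF Su(Hw) 1 or 2). Within 100 kb of su(Hw) itself, none of the 22 genes tested moved consistently. Chromosome differences between the strains were not tested.

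**Figure D4:**
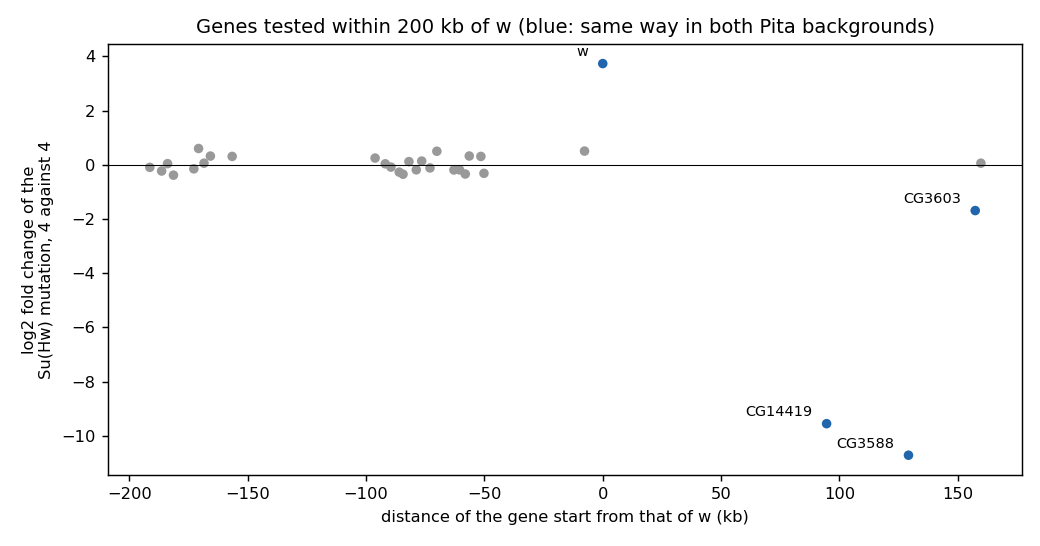
Log2 fold change of the Su(Hw) mutation, 4 libraries against 4, for w and the 30 other genes tested within 200 kb of it, by the distance of the gene start from that of w in kb. Blue points moved the same way in both Pita backgrounds: w at 3.74, CG3603 at -1.69, CG14419 and CG3588 far under 0.

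Neighbouring consistent genes were found elsewhere as well. In all, 36 of the 168 (21.4%) lay in 12 runs of at least 2 consistent genes of the same direction less than 20 kb apart. How often other sets of tested genes form such runs was not counted, so this share has no background to be read against. Besides the Bomanin, Hsp70, maltase and Ccp84A runs, these held Hsp83 with CG42494 and CG32284 on 3L, Odc1 with Odc2 on 2R, and Jon99Fi with Jon99Fii on 3R. Copies within the Bomanin, Hsp70, maltase, Odc and Jon99F runs are related in sequence, so they are not independent. The cuticle protein genes of the Ccp84A run, and those of a run on 3L (Lcp65Ag2, Cpr65Aw and Acp65Aa), should not be read as independent either.

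Several large groups had few or no consistent members and values of opposite sign in the backgrounds. The 83 cytosolic ribosomal protein genes tested had a median log2 fold change of 0.56 with Pita mutant and -1.53 with Pita intact, and -0.50 in the 4 against 4 fit, and none passed there. For the 80 nuclear genes of oxidative phosphorylation these medians were 0.24, -1.59 and -0.71, and for the 12 mitochondrially encoded genes 0.61, -2.64 and -1.06, with none passing. Testis genes ran the other way, with medians of -0.89 with Pita mutant and 1.97 with Pita intact, and 1 of 42 tested was consistently lower (0.633% of all genes). It was CycB, a cyclin gene also used by dividing somatic cells. The call of CycB ended whichever of the 8 libraries was left out (log2 fold change -0.737 to -0.681). Neither list of glue and ecdysone-response genes, which mark the days before pupation, had a consistent member of 7 and 19 tested (medians -0.67 and -0.29).

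**Figure D5:**
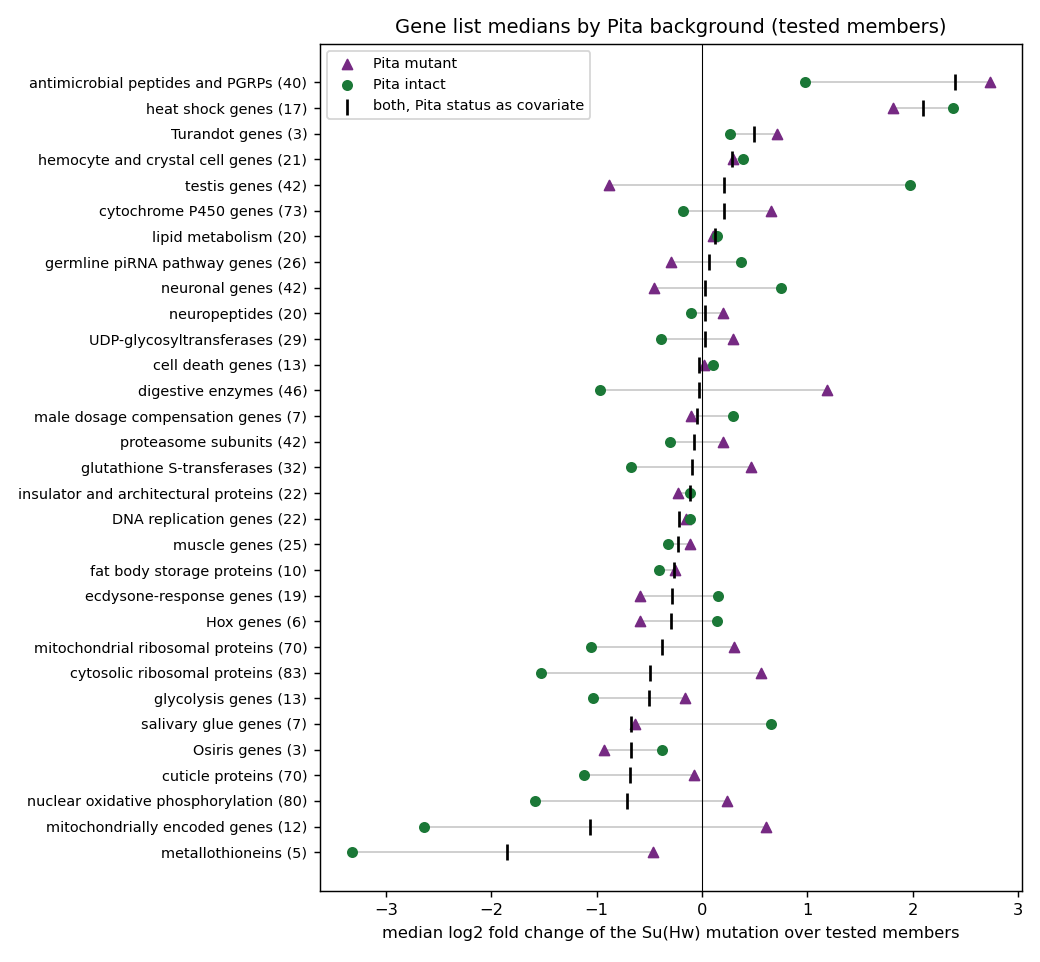
Median log2 fold change of the Su(Hw) mutation over the tested members of 31 gene lists (numbers tested in brackets), with Pita mutant (triangles), with Pita intact (circles) and with Pita status as covariate (ticks). Immune and heat shock genes have both symbols above 0; ribosomal, oxidative phosphorylation and digestive genes have them on opposite sides.

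Among genes with a name other than a placeholder such as a CG number, the 5 with the smallest adjusted p for a difference between backgrounds were Arc1, Jon44E, Sgs4, Srg3 and fiz. Arc1, whose product packages RNA in capsids like a retrotransposon, was at 5090 and 5616 CPM in the triple mutant and 215 and 239 CPM in the CTCF Su(Hw) mutant, against 731 and 863 CPM in CTCF Pita mutants and 1319 and 1110 CPM in the CTCF mutant. Its log2 fold change was 2.75 with Pita mutant and -2.42 with Pita intact (difference 5.17, edgeR adjusted p = 1.47e-05), which left 0.17 (SE 1.23, edgeR adjusted p = 0.986) over both. The gut protease gene Jon44E had 2.94 with Pita mutant and -3.08 with Pita intact, and the glue gene Sgs4 -1.97 and 2.84 in the same order. Srg3 and fiz had differences of 4.16 and 3.16 between the backgrounds.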

How the data were processed

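Poly(A) RNA of whole larvae was sequenced as paired reads, per the labels' protocols, after 12 PCR cycles from 50 ng of total RNA. The authors deposited raw counts per gene, 1 table a library with 3 strand columns, in the layout of STAR output. Cutadapt, STAR and build dm6 are named in the submitters' processing notes; no source used here gives versions, annotation or read filters. The unstranded counts were used, since 50.1% to 50.3% of stranded assignments were forward. Reads mapped to several places (50.9% to 65.5%) were not counted, which leaves near-identical copies uncertain. Of 17735 identifiers, 17597 (99.2%) matched a name in Ensembl's annotation, and the other 138 kept their identifier. Lines that name no gene were left out; assigned reads were 25.6% to 39.8% of all.

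Genes were filtered with filterByExpr over the 4 genotypes (10585 kept, 7150 removed, at least 99.66% of assigned reads kept), scaled with TMM (factors 0.538 to 1.33) and compared by edgeR 4.0.16 in R 4.3.3 (quasi-likelihood F-test), with Su(Hw) and Pita status as terms, 5 residual degrees of freedom and Benjamini-Hochberg adjustment over all genes at 0.05, two-sided. The biological coefficient of variation was 30.7% in this fit and 16.1% with 4 genotypes, the model that gave the interaction and the fold change in each Pita background. SE is the log2 fold change divided by the root of F. An exact permutation test within Pita status could not go below p = 0.0556. A single read stands for 0.0939 to 0.297 CPM. Against 0 reads a bound uses 3 reads over the group; bounds and 95% intervals cover counting error alone, as PCR copies are not independent. Scripts were tested on simulated data with no Pita effect and no difference between the backgrounds, so that test does not cover genes with such a difference.

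Text genes are the 12 largest consistent rises and falls that averaged 5 CPM or more where higher and have a name, 3 of any name in each direction, up to 4 called members of a list, and 5 for the interaction; su(Hw), pita, CTCF, Cp190, mod(mdg4), w and y were always read. Members and gene lists were chosen with earlier results of these data known. Genes outside these sets, such as list members past the fourth, CG31793, neur, CG4757, CG42815, Odc1, Acbp5, PPO3 and CG3603, were chosen after their values were seen. Same-numbered libraries did not deviate together (r = -0.11 to 0.0524 over 6 pairs of genotypes), so replicate numbers were not used as pairs. Alternatives were other scalings, filters and models, DESeq2 1.42.0, and leaving out each library.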

Additional observations from a re-analysis of the deposited data

Results flagged for a closer look

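Dixon's criterion is met by chance in about 1 of 20 groups of 4 independent values from 1 population. The groups here join 2 genotypes each, so that share does not apply to them directly. In groups of 4 libraries with the Su(Hw) mutation, single libraries stood apart from the other 3 by this criterion. These were triple 2 for Def (207.6 CPM), CecC (58.9 CPM) and Cp190 (15.13 CPM), triple 1 for Hsp68 (223.9 CPM), Alp2 (1.419 CPM) and Lcp65Ag2 (2.402 CPM), and CTCF Su(Hw) 2 for CG3588 (0.09664 CPM, a single read).

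The effect of the Su(Hw) mutation with Pita mutant minus that with Pita intact passed the interaction test in 4627 genes. For consistent rises named in the text the difference on the log2 scale was negative, that is a smaller rise with Pita mutant, for w (-3.876), Mal-A7 (-3.073), Mal-A8 (-1.905) and neur (-1.071). It was also negative for Sgs4 (-4.811) and Cp190 (-1.694), which were not consistent. It was positive for Jon44E (6.022), Arc1 (5.166), Srg3 (4.164) and fiz (3.161), all 4 of which had a negative value with Pita intact. Of the consistent falls named in the text, it was positive, that is a smaller fall with Pita mutant, for CG8834 (3.312), Cpr65Aw (1.989), MtnB (1.937), Lcp65Ag2 (1.593), Cyp6g1 (1.564), ss (1.467), Odc2 (1.415), CG3603 (1.058) and PGRP-SC1b (1.027).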

How the results depend on the processing

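Of the 168 consistent genes, none changed sign under the 20 alternatives, and 12 kept their call in all. The 174 genes called (106 higher, 68 lower) and the 168 consistent ones (101 and 67) moved as follows. Library totals gave 78 called and 78 consistent (55 and 23 in both counts) and shifted the median of all genes to 0.35. DESeq2 gave 429 (265 and 164) and 402 (254 and 148). At least 5 CPM in 4 libraries gave 99 (58 and 41) in both. The 4-genotype model gave 1519 (704 and 815) and 704 (419 and 285), and all 10 libraries 1643 (810 and 833) and 746 (455 and 291). Without Pita status both were 34 (24 and 10). With a replicate block there were 71 (38 and 33) and 70 (38 and 32), with salivary glue level as covariate 97 (60 and 37) in both, and with the CTCF Su(Hw) libraries summed 58 (34 and 24) and 57 (34 and 23). Leaving out single libraries gave 53 to 128 called (31 to 68 higher, 20 to 60 lower), 52 to 127 consistent (31 to 68 and 19 to 59) and 2918 to 5141 interaction calls in place of 4627. The cause was not tested, apart from fewer libraries or genes in the fits that leave some out. Of the 168 consistent genes, 46 remained with library totals, 168 with DESeq2, 167 with the 4-genotype model and 70 with the replicate block.

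Among genes named in the text, signs changed for 3 that did not pass. For pita the log2 fold change was 0.3627 with library totals, 0.1885 without Pita status, 0.06539 with libraries summed and -0.1374 to 0.1927 with single libraries left out. For Cp190 it was -0.0003569 with libraries summed and -0.1427 to 0.5281 with single libraries left out, and for mod(mdg4) 0.1645 with library totals. RLE factors, TMM without mitochondrial genes and no filter kept the counts within 1.5 times. Genes near 0 reads are limited by depth, with 3 reads as the floor.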
